A study of Homo sapiens with 6 samples.

Results

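The genes described here are the nuclear receptor superfamily, the transcription factors that bind steroid and thyroid hormones, retinoids, fatty acids, sterols and drugs, together with their relatives that have no known ligand. The 46 members were taken by gene symbol from a fixed list, each found once in the deposited count table, out of 60835 gene names. They were measured in the cell line SW620, an established line from a human colon cancer. One group of 3 libraries came from SW620 cells with a control short hairpin vector (shControl, genotype labelled WT). The other group of 3 came from SW620 cells labelled DNM1 Knockdown (shDNM1) and called stable in the design text, in which the hairpin targets the gene of the vesicle-scission GTPase dynamin 1. Both groups grew in high-glucose DMEM with serum, and no ligand or other agent is named. The labels do not say how many hairpins or clones were used, or whether replicate libraries stem from different cultures. The p-values therefore reflect no more than the variation among these 6 libraries, which may be technical. All shControl libraries are labelled batch_A and all shDNM1 libraries batch_B, so the vector and the batch cannot be told apart in any result below.

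A nuclear receptor usually carries a zinc-finger domain that binds a short DNA half-site and a ligand-binding domain that exchanges corepressors for coactivators when ligand binds. Steroid receptors wait in the cytoplasm on chaperones and act as homodimers, whereas retinoic acid, vitamin D, thyroid hormone, PPAR, LXR and FXR receptors pair with an RXR on direct repeats of the half-site. In intestinal epithelium, HNF4A and HNF4G maintain enterocyte genes, VDR controls calcium uptake, FXR and LXR respond to bile acids and oxysterols, and PPARG is known as a differentiation factor.

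Library totals ran from 12844534 to 13537519 counts, and the members took 0.0938% to 0.102% of them. DNM1 mRNA had 127, 127 and 133 CPM in the shControl libraries and 126, 97.8 and 125 CPM in the shDNM1 libraries. CPM are TMM-scaled counts per 1e6. Its log2 fold change was -0.15 (SE 0.083), which did not pass the test (adjusted p = 0.189), and only shDNM1 replicate 2 was clearly lower. Without that library the value was -0.04 (adjusted p = 0.718), and without shDNM1 replicate 1 it was -0.20 and passed (adjusted p = 0.0399). Each direction below is therefore between libraries by their labels, since DNM1 mRNA itself did not pass. Of 10 colon epithelial markers, 8 reached 1 TPM in a group, with sums of 9020 to 9511 TPM in shControl and 10026 to 10715 TPM in shDNM1. Most of each sum was KRT8 (5964 to 6359 against 6845 to 7221 TPM) and KRT18, whereas EPCAM was lower in every shDNM1 library (793 to 849 against 691 to 721 TPM), as was VIL1. CDX1 was at 0 and CEACAM5 stayed below 1 TPM. Of 8 fibroblast markers 3 reached 1 TPM (sums of 28.6 to 36.2 and 36.3 to 54.4 TPM, mostly LUM), with COL3A1 and FAP at 0 throughout. Of 7 leukocyte markers 2 did (8.18 to 10.2 and 3.53 to 4.89 TPM, mostly LYZ), with CD3E at 0 and PTPRC at 0 in 5 of 6 libraries. Of 5 endothelial markers 2 did (7.2 to 8.4 and 6.82 to 9.06 TPM), with KDR at 0. In these bulk libraries, fewer cells with a transcript and less of it per cell cannot be told apart.

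SW620 cells held a broad but uneven set of receptor mRNAs. On the length-adjusted scale of the deposited TPM, 21 of 46 members averaged at least 10 TPM in the shControl libraries, 7 lay between 1 and 10, 12 were above 0 but under 1, and 6 were at 0. ESRRA, an orphan receptor that drives mitochondrial genes, ranked first at 126 ± 4.52 TPM in shControl and 162 ± 7.69 TPM in shDNM1 (SD, n = 3), and HNF4A second at 71.6 ± 1.66 and 82.0 ± 7.12 TPM. They were followed in shControl by NR2F6 (55.2 TPM), PPARG (47.7 TPM), NR2C1 (44.5 TPM), RXRB (40.3 TPM) and NR1H3 (37.6 TPM). ESRRA, HNF4A and NR2F6 stood apart from each neighbour in shControl, while the library ranges of PPARG, NR2C1 and RXRB each overlapped that of the next member. The range of NR1H3 did not reach that of NR2F1, which followed it. In shDNM1 the ranges of HNF4A and NR2F6 overlapped. The 10 highest members made up 68.8% of the summed TPM of all members in shControl and 73.6% in shDNM1. By rank, NR2F1 went from place 8 to place 23 and NR1H2 from place 10 to place 4, whereas ESRRA was first in both groups. In each group the library ranges of NR2F1 and NR1H2 overlapped that of a neighbour, so their exact places are not resolved.

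**Figure D1:**
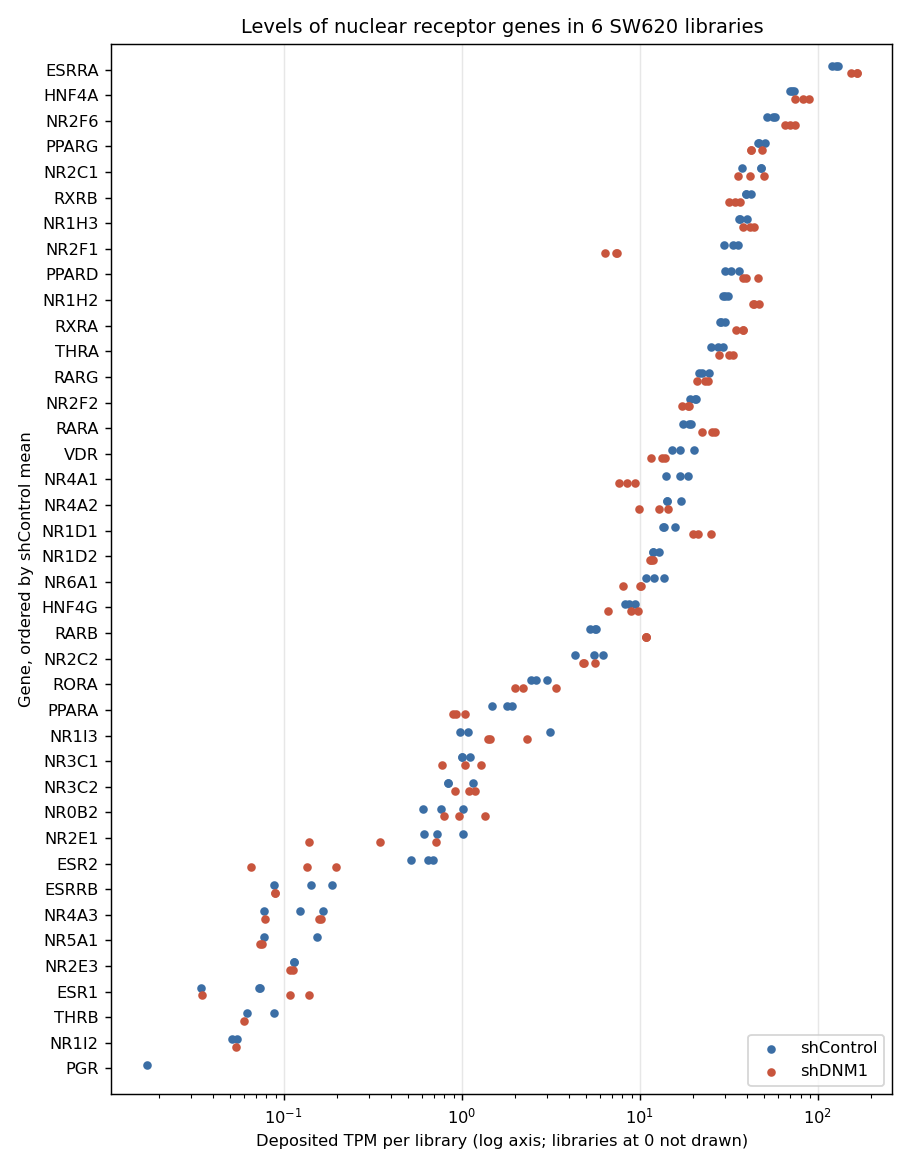
Deposited TPM (log axis) of each nuclear receptor gene with any signal, 1 point per library, shControl in blue and shDNM1 in red, ordered by the shControl mean. ESRRA is highest in both groups, the red points of NR2F1 lie far left of its blue points, and those of NR1H2, NR1D1 and RARB lie to the right.

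Of the 46 members, 30 had enough counts to be tested. Among these 9 rose and 6 fell in shDNM1, and 15 did not pass (edgeR quasi-likelihood test, Benjamini-Hochberg adjusted p under 0.05 over 16744 genes). Over all genes tested 31.9% were called, 15.6% higher and 16.2% lower. Of the members that passed the filter, ESR2 reached its count minimum in the shControl libraries alone and NR2E1 in 2 shControl and 1 shDNM1 libraries. The median log2 fold change of the 30 was -0.01, as over all genes (-0.01), and the median absolute change 0.29 against 0.24. The groups did not overlap for 17 members, 10 with shDNM1 above and 7 below, against 44.3% of all genes. A call with a change of at least 1.5-fold was made for 3 members higher (RARB, NR1D1, NR1H2) and 4 lower (NR2F1, ESR2, NR4A1, PPARA), where 11.7% of all genes met that rule, 4.65% higher and 7.08% lower. With limma on log2(TPM + 1), 8 members rose and 5 fell, and the share of all called genes that were higher was 38.8% rather than 49%.

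**Figure D2:**
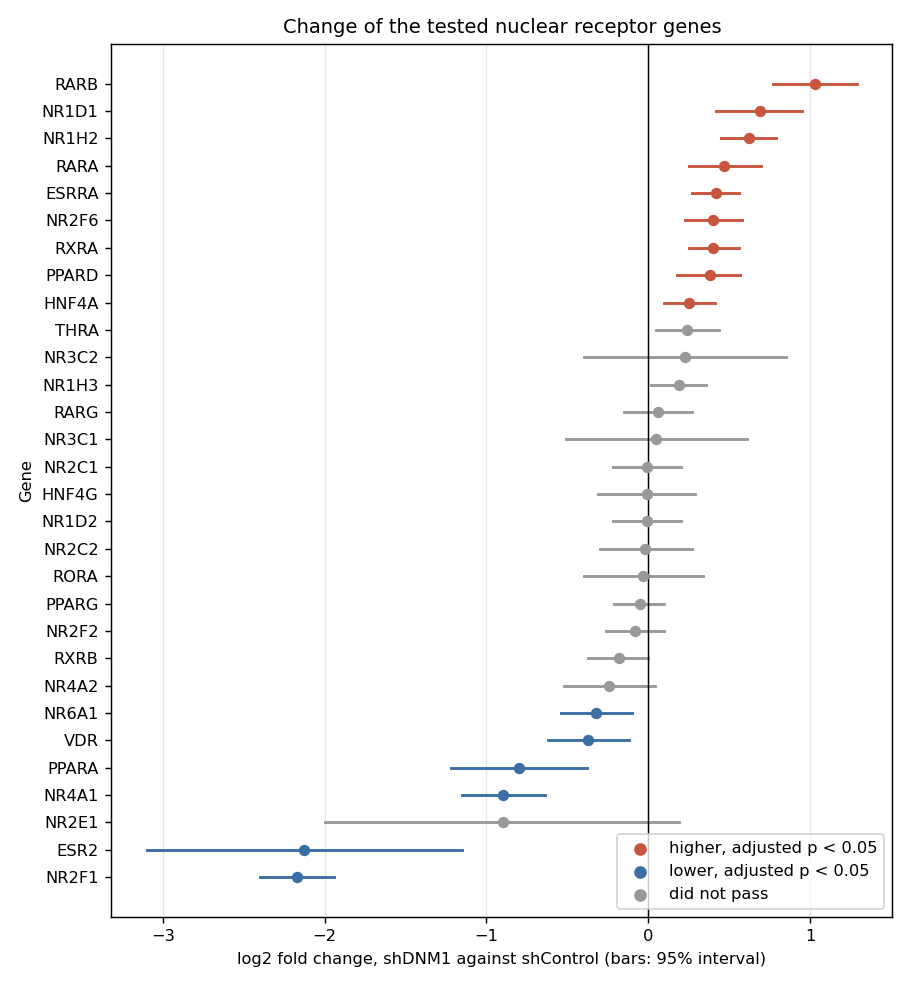
Log2 fold change of shDNM1 against shControl for the 30 tested members (points) with 95% intervals (bars), coloured by call. NR2F1 and ESR2 sit near -2.1, RARB near 1, and the intervals of the members in grey include changes of both signs or missed the threshold after adjustment, as for THRA and NR1H3.

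The retinoic acid receptors RARA and RARB switch on differentiation genes when bound by all-trans retinoic acid. Both rose, as did RXRA, an RXR that can be their partner, while RARG and RXRB did not pass. RARB had 8.36, 9.13 and 9.10 CPM in shControl and 17.6, 18.8 and 17.9 CPM in shDNM1. Every shDNM1 library thus lay far above every shControl library, a 2.04-fold rise (log2 fold change 1.03, SE 0.12, adjusted p = 4.58e-06). RARA went from 18.6, 21.2 and 20.2 to 24.6, 30.7 and 28 CPM, without overlap (1.39-fold, adjusted p = 0.0021). RXRA, a common heterodimer partner, went from 53.2, 57.6 and 53.7 to 66.7, 77.2 and 73.7 CPM, again without overlap (1.32-fold, adjusted p = 0.000466). RARG, the third retinoic acid receptor, had 20.4, 21.7 and 23.4 CPM in shControl and 23.6, 21.8 and 22.9 CPM in shDNM1, which overlapped, and the 95% interval of its change ran from 90.1% to 121% of control (adjusted p = 0.691). RXRB, the other RXR detected, had 39.2, 37.8 and 37.5 CPM against 30.4, 37.2 and 33.3 CPM. Its shDNM1 libraries were all lower, replicate 2 only slightly, and the change did not pass (88.2% of control, adjusted p = 0.129) except without shDNM1 replicate 2 (adjusted p = 0.0415) and on the TPM scale (adjusted p = 0.0423). RXRG, the RXR of muscle and brain, had 0 counts in every library, where 3 counts, the limit that a count of 0 allows, are 0.222 to 0.234 CPM.

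RARB is known for a retinoic acid response element in one of its promoters, so that promoter is printed here. RefSeq (GRCh38.p14) gives 4 start sites for RARB, and the window of 1 of them holds a direct repeat of receptor half-sites. The 250 bases before that start (plus strand, chr3:25428013-25428262) follow, with the repeat in capitals.
RARB: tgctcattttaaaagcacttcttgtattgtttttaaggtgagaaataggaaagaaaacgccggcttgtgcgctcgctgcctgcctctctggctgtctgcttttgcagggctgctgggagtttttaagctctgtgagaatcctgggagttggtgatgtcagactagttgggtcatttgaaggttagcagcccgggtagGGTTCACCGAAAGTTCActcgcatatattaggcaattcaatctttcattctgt
It lies 53 to 37 bases before the start and consists of the half-site GGTTCA, a spacer of 5 bases and the half-site AGTTCA, a spacing called DR5 that RAR and RXR bind as a pair. A half-site was taken as the consensus AGGTCA, its variant AGTTCA, the form GGTTCA seen here or the form GGGTCA, followed after 1 to 5 bases by another of these, on either strand, in windows from 250 bases before to 50 after each start. Because the search included the form GGTTCA seen in this repeat, the match at RARB was fixed by the choice of letters. It is therefore no test of RARB, and the shares that follow do not single this gene out. A DR5 was found in 0.0883% of all 35116 RefSeq windows. Among the 96 windows of the 41 members in that table, it was in this RARB window only. The shorter spacings DR1, DR2, DR3 and DR4 were in 0 of the 96. The single half-site AGGTCA was in 16 of the 96 member windows and in 13.8% of all windows. Those 16 belong to 11 of the 41 members, among them RARA and another RARB start. A match is a description of letters, and the counts here do not tell which RARB start was used.

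Genes known to respond to retinoic acid did not move one way. Of 9 tested genes of that list 3 rose and 2 fell, with a median log2 fold change of 0.16. Beside this list and each list below, 31.9% of all tested genes were called, 15.6% higher and 16.2% lower. The transglutaminase gene TGM2 had 62.9, 79.7 and 70.8 CPM in shControl and 230, 241 and 247 CPM in shDNM1 (3.36-fold, adjusted p = 4.42e-11). TNFAIP2 was 1.48-fold higher (adjusted p = 9.22e-05). STRA6, the retinol uptake receptor, fell to 70.6% of control (adjusted p = 1.84e-05), and DHRS3, a retinaldehyde reductase induced by retinoic acid, to 73.5% (adjusted p = 0.00176).

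NR1D1, a heme-binding repressor of the circadian clock also called REV-ERB alpha, rose while its paralog NR1D2 did not pass. NR1D1 had 11.5, 13.7 and 11.7 CPM in shControl and 17.4, 19.7 and 22.3 CPM in shDNM1. The groups did not overlap, and the mean rose by a log2 fold change of 0.69 (SE 0.13, 1.61-fold, adjusted p = 0.000439). NR1D2 had 21.8, 20.6 and 20.4 CPM against 19.9, 21.5 and 21.0 CPM, which overlapped, with an interval of 85.7% to 115% of control (adjusted p = 0.945). RORA, the activator that competes with REV-ERB for the same sites, had 8.76 to 10.8 CPM and 7.65 to 12.3 CPM (adjusted p = 0.917), and RORB, its neural paralog, was at 0 counts throughout. Of 12 tested clock genes 2 rose (PER1 1.33-fold, adjusted p = 0.000785, and NPAS2 1.24-fold, adjusted p = 0.00219) and 2 fell. Those that fell were NFIL3, a repressor of D-box genes (82.0% of control, adjusted p = 0.022), and the clock activator BMAL1, whose gene REV-ERB represses (80.1%, adjusted p = 0.0409). Both falls were weak. None of the clock genes was called lower without shControl replicate 1, 2 or 3 or shDNM1 replicate 3, and 1 was without shDNM1 replicate 1. BMAL1 then had adjusted p values of 0.0764 to 0.117 and NFIL3, where lost, 0.0574 to 0.0867.

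THRA, the thyroid hormone receptor gene that overlaps NR1D1 tail to tail, lay just outside the threshold. It had 42.4, 50.5 and 47.3 CPM in shControl and 48.5, 61.9 and 55.6 CPM in shDNM1, where the lowest shDNM1 library fell within the shControl range (1.18-fold, adjusted p = 0.0515, the lowest among the members that did not pass). It passed without shControl replicate 2 (adjusted p = 0.0432) and without shDNM1 replicate 1 (adjusted p = 0.00283), and under RLE scaling, other low-count filters or a robust fit (adjusted p = 0.0393 to 0.0421). With the replicate number as a block its adjusted p was 0.0101. On chromosome 17 THRA (plus strand, 40058290 to 40093867) and NR1D1 (minus strand, 40092793 to 40100589) overlap by 1075 bases, and RARA follows after 209 kb. GENCODE exons of the pair share 263 bases, 9.49% of those of NR1D1 and 3.78% of those of THRA. Whether counting used strand is not given in the sources used here, so reads from the shared bases cannot be assigned to one gene. The paralogous trio on chromosome 3 is NR1D2, THRB and RARB, with gaps of 137 and 192 kb. There RARB was the only called gene, NR1D2 did not pass and THRB had 0 to 3 counts in a library. Of 4 tested genes for thyroid hormone handling or response, none rose and 2 fell: the hormone-inactivating deiodinase DIO3 (67.9% of control, adjusted p = 0.000861) and the transporter SLC16A10 (adjusted p = 0.0154, and 0.0811 without shControl replicate 3, which left 1 gene lower).

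Among the fatty acid receptors, PPARD rose, PPARA fell and PPARG did not pass. PPARG was the highest of the 3 by mean TPM. In shDNM1 its libraries (42.1 to 48.5 TPM) overlapped those of PPARD (38 to 46.2 TPM). PPARG had 67.3, 70.6 and 74.9 CPM in shControl and 73.3, 67.4 and 64.5 CPM in shDNM1, which overlapped. The interval of its change was 86.6% to 107% of control (adjusted p = 0.638). PPARD, which is broadly expressed and turns on fat oxidation, went from 36.9, 45.4 and 40.5 to 47.8, 52.7 and 58.9 CPM without overlap (1.30-fold, adjusted p = 0.00443). PPARA, the fasting-response receptor of liver, went from 6.29, 6.04 and 4.93 to 3.49, 3.19 and 3.19 CPM, also without overlap. That is 57.3% of control (log2 fold change -0.80, SE 0.20, adjusted p = 0.00464), and -0.48 on the log2(TPM + 1) scale, which compresses low genes (adjusted p = 0.0306).

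Of 15 tested genes that PPARs drive in other tissues 5 fell and 3 rose, with a median log2 fold change of -0.12. PLIN2, a coat protein of lipid droplets, went to 59.5% of control (180 ± 6.05 to 107 ± 5.77 CPM, SD, n = 3, adjusted p = 9.43e-08). PDK4, a kinase that spares glucose, went to 51.8% (adjusted p = 0.00242), the secreted lipase inhibitor ANGPTL4 to 49.6% (adjusted p = 0.00618) and the peroxisomal enzyme EHHADH to 66.1% (adjusted p = 0.000797). The genes that rose were ETFDH, SLC25A20 and CREB3L3, and these calls were fragile. Without shControl replicate 2 none of the list rose and 5 were called in all, and 1 rose without shControl replicate 3 or shDNM1 replicate 1.

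NR1H2, the ubiquitous oxysterol receptor LXR beta, rose more than 1.5-fold, as did RARB and NR1D1. It had 36.4, 36.0 and 34.7 CPM in shControl and 52.3, 59.8 and 52.4 CPM in shDNM1. The groups lay well apart, with little spread in shControl (1.54-fold, log2 fold change 0.62, SE 0.080, adjusted p = 1.17e-05). NR1H3, LXR alpha, had 35.3, 32.8 and 32.8 CPM against 39.9, 36.8 and 38.5 CPM. Its groups did not overlap either, yet the change of 1.14-fold did not pass (adjusted p = 0.083). Of 9 tested LXR response genes 4 rose and 1 fell, with a median log2 fold change of 0.10. SREBF1, the lipogenic factor, was 1.31-fold higher (adjusted p = 6.43e-05), APOE 1.49-fold and the cholesterol exporter ABCG1 1.86-fold (each adjusted p = 0.00181), and LPCAT3, a phospholipid-remodelling enzyme, 1.18-fold (adjusted p = 0.0362). LPCAT3 no longer passed when shControl replicate 1, shControl replicate 3, shDNM1 replicate 2 or shDNM1 replicate 3 was left out (adjusted p = 0.0697 to 0.151). SCD, the fatty acid desaturase, fell to 71.4% of control (adjusted p = 6.36e-06), and the exporter ABCA1 did not pass, with 0.985 and 0.674 CPM.

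NR1H4, the bile acid receptor FXR, had 0 counts in every library. Of 4 tested genes of its response list 0 passed edgeR's test, 0 had an unadjusted p under 0.05, and DESeq2 and limma-voom also called 0. FGF19, the enterocyte hormone that FXR induces, was nonetheless abundant at 338 and 340 CPM (adjusted p = 0.95). SLC51B, a subunit of the basolateral bile acid exporter, was under the count filter with 2 to 6 counts in shControl and 9 to 27 in shDNM1. When it was tested it passed, which made the list's count 1 with no filter and without shControl replicate 1, 2 or 3 or shDNM1 replicate 2. With a library left out, only shDNM1 libraries brought SLC51B past the filter, the group where it was higher.

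VDR, the vitamin D receptor, fell, and the xenobiotic receptors were close to undetected. VDR had 26.1, 24.1 and 31.5 CPM in shControl and 18.3, 23.4 and 21.4 CPM in shDNM1. The highest shDNM1 library lay just under the lowest shControl library (77.3% of control, adjusted p = 0.0213). Its call was lost without shControl replicate 3 (adjusted p = 0.151), shDNM1 replicate 1 (adjusted p = 0.0591) or shDNM1 replicate 3 (adjusted p = 0.0554), and on the log2(TPM + 1) scale (adjusted p = 0.0503). Of 6 tested vitamin D response genes 3 fell and 2 rose. CYP24A1, the vitamin D 24-hydroxylase and the classic target of VDR, had 2.38, 1.84 and 2.47 CPM in shControl. In shDNM1 it had 0.155, 0.638 and 0.760 CPM (23.6% of control, adjusted p = 0.000926). The counts were few, with 31, 25 and 32 against 2, 8 and 10. Only the shControl libraries reached the count minimum, so CYP24A1 was tested through the group where it was higher. ATP2B1, a calcium pump, fell to 77.2% (adjusted p = 0.00167), and CLMN fell to 57.8% (adjusted p = 0.0392). CLMN failed the test once either of shControl replicates 1 and 2 or of shDNM1 replicates 2 and 3 was dropped (adjusted p = 0.0757 to 0.184). IGFBP3, which binds insulin-like growth factors, was 2.37-fold higher (adjusted p = 3.87e-07) and the calcium channel TRPV6 1.53-fold higher (adjusted p = 0.00373).

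NR1I2 (PXR), the main drug sensor of liver and gut, had 0 or 1 count in a library, and NR1I3 (CAR), its relative, had 19, 7 and 6 counts against 9, 15 and 9, too few to be tested. Of 6 tested drug metabolism genes 3 fell and 2 rose. The exporter ABCC3 went to 56.0% of control (adjusted p = 1.36e-06), CYP2B6 to 60.0% (adjusted p = 0.000493) and CYP3A5 to 54.4% (adjusted p = 0.00119). CYP2B6 and CYP3A5 belong to families of close paralogs, so reads may be shared. ALAS1, the first enzyme of heme synthesis, was 1.33-fold higher (adjusted p = 0.000165) and the exporter ABCB1 1.2-fold (adjusted p = 0.0139, and 0.0842 without shControl replicate 3, which left 1 gene higher).

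HNF4A, the fatty-acid-binding receptor that defines hepatocyte and enterocyte programmes, rose slightly from a high level. It had 110, 115 and 109 CPM in shControl and 118, 139 and 142 CPM in shDNM1, a 1.19-fold rise without overlap (adjusted p = 0.0124). That call was lost without shControl replicate 3 (adjusted p = 0.0673) or shDNM1 replicate 3 (adjusted p = 0.08) and on both TPM scales (adjusted p = 0.0724 and 0.0742). HNF4G, its intestinal paralog, had 11.6 to 13.0 CPM and 9.80 to 13.7 CPM, with an interval of 80.8% to 122% of control (adjusted p = 0.975). Of 18 genes known to depend on HNF4 only 8 had enough counts to be tested, and 2 rose and 1 fell. CDX2, the intestinal master regulator and also one of the epithelial markers above, was 2.47-fold higher (8.06 ± 1.49 to 19.9 ± 1.48 CPM, SD, n = 3, adjusted p = 1.66e-06), and SERPINA1 was 1.29-fold higher (adjusted p = 0.00639). Without shControl replicate 1 or 3 the count of the list that fell was 0.

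Receptors of classical steroid hormones were scarce in these cells. NR3C1, the glucocorticoid receptor, had 2.61, 2.43 and 2.39 CPM in shControl and 3.11, 2.71 and 1.90 CPM in shDNM1, and NR3C2, the mineralocorticoid receptor, 1.61 to 2.28 and 1.82 to 2.47 CPM. Neither passed (adjusted p = 0.903 and 0.607), and the wide interval for NR3C1, 70.4% to 153% of control, reflects the few counts. PGR, the progesterone receptor, had 1 count in 1 of 6 libraries, and ESR1, oestrogen receptor alpha, had 1 to 4 counts in a library. ESR2, oestrogen receptor beta, which is the main oestrogen receptor of colon epithelium, had 15, 20 and 20 counts in shControl and 4, 2 and 6 counts in shDNM1. On the scaled counts these were 1.15, 1.47 and 1.54 CPM against 0.311, 0.159 and 0.456 CPM, so that each shDNM1 library lay well below each shControl library. The fall to 22.9% of control passed (log2 fold change -2.13, SE 0.46, adjusted p = 0.00169), though ESR2 was tested only through the shControl libraries, where it was higher. With so few counts its 95% interval was wide, from 11.7% to 44.9%. On the log2(TPM + 1) scale the change was -0.51 (adjusted p = 0.0159).

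Of 6 tested oestrogen response genes 3 fell and 1 rose. MYB, a progenitor transcription factor, went to 41.2% of control (74.6 ± 2.70 to 30.8 ± 1.90 CPM, SD, n = 3, adjusted p = 1.36e-09) and IGFBP4 to 81.1% (adjusted p = 0.00392), while the G1 cyclin CCND1 was 1.29-fold higher (adjusted p = 0.000372). PDZK1, a scaffold protein, fell to 73.6% (adjusted p = 0.0264), but not once either of shControl replicates 1 and 3 or of shDNM1 replicates 2 and 3 was dropped (adjusted p = 0.0515 to 0.144). Genes of the glucocorticoid response split, with 4 of 12 higher and 2 lower (1 lower without shControl replicate 3 or shDNM1 replicate 3) and a median log2 fold change of 0.25. FKBP5, a co-chaperone and sensitive marker of that response, fell to 54.9% of control (109 ± 4.54 to 59.8 ± 5.86 CPM, SD, n = 3, adjusted p = 1.19e-07). The phosphatase DUSP1 was 1.88-fold and the CDK inhibitor CDKN1C 1.85-fold higher (adjusted p = 0.000439 and 0.000468). Of the 12 chaperones that hold steroid receptors 4 rose and 1 fell. DNAJB1 was 1.38-fold higher (adjusted p = 7.42e-05) and HSPA4 1.23-fold (adjusted p = 0.000763). STIP1 was 1.17-fold higher (adjusted p = 0.0104) and AHSA1 1.15-fold (adjusted p = 0.0351, and 0.0857 to 0.149 once either of shControl replicates 1 and 3 or of shDNM1 replicates 2 and 3 was dropped). HSPA8 fell to 86.4% (adjusted p = 0.0148), and it failed once shControl replicate 1, shControl replicate 3 or shDNM1 replicate 3 was dropped (adjusted p = 0.0626 to 0.0937), which left 0 lower. Chaperones called in all then numbered 3 without shControl replicate 1 and 3 without shControl replicate 3.

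ESRRA, which binds no natural oestrogen and acts with PGC-1 coactivators, rose from the highest level of the family. It had 94.2, 99.4 and 91.4 CPM in shControl and 117, 135 and 128 CPM in shDNM1, without overlap (1.33-fold, log2 fold change 0.42, SE 0.070, adjusted p = 0.000162). Its exons share 284 bases (9.37%) with TRMT112 on the opposite strand, which had a log2 fold change of 0.15 and did not pass (adjusted p = 0.124). Of the stretches of 50 bases in its longest transcript, 7.79% also occur elsewhere in GENCODE, most of them in the pseudogene ESRRAP1, which had 1 count in all. Its relatives ESRRB and ESRRG, which act in stem cells and in heart and brain, had 0 to 4 counts and 0 counts.

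NR2F1, the orphan receptor COUP-TFI that represses many genes from direct repeats, fell several-fold, by about as much as ESR2 but from far more counts. It had 41.8, 38.1 and 45.3 CPM in shControl and 9.40, 10.1 and 8.29 CPM in shDNM1. The groups were separated by a wide gap, and the mean fell to 22.2% of control (95% interval 18.9% to 26.1%, log2 fold change -2.17, SE 0.11, adjusted p = 2.82e-10). Counted from the largest fall, it was number 46 of 16744 tested genes. NR2F2 (COUP-TFII), its nearest paralog, did not pass, with 35.4, 33.6 and 35.4 CPM against 32.8, 35.3 and 30.9 CPM and an interval of 83.8% to 107% of control (adjusted p = 0.537). NR2F6, the third COUP-TF gene, went the other way, from 43.2, 41.0 and 45.3 to 51.8, 62.9 and 56.5 CPM (1.32-fold, adjusted p = 0.00115). No stretch of 50 bases in the longest transcript of any member occurs in a transcript of another member, so reads of that length would not be shared between NR2F1 and NR2F2. The read length is not given in the sources used here.

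The promoter of NR2F1 is shown because of the size of its fall and because, of the windows of 41 members, only this one held a CArG box, the serum response element core. RefSeq gives 2 start sites for NR2F1, and the box is in the window of 1 of them. The 250 bases before that start (GRCh38.p14, plus strand, chr5:93582972-93583221) follow, with that box in capitals.
NR2F1: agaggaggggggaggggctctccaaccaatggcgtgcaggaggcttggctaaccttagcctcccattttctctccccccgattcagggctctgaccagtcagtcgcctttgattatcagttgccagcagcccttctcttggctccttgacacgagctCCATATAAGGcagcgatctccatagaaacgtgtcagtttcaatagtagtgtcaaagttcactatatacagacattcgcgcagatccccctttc
It lies 93 to 84 bases before the start, and a CArG box on either strand was present in 1.29% of all windows. Of the other motifs searched, the cyclic AMP response element TGACGTCA was in 2 of the 96 member windows (1.85% of all windows). The E-box CACGTG was in 9 of the 96, from 7 members (7.26% of all windows). The D-box TTATGTAA was in 2 of the 96 (0.886% of all windows). NR2F1-AS1, the antisense transcript that starts beside NR2F1, was looked at after the values of NR2F1 were seen. It had 135, 119 and 125 counts in shControl and 39, 41 and 26 counts in shDNM1, so it was lower in each shDNM1 library as well (log2 fold change -1.80, adjusted p = 1.97e-06). The exons of the pair share 158 bases, 3.66% of those of NR2F1, and without strand their reads there cannot be told apart.

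**Figure D3:**
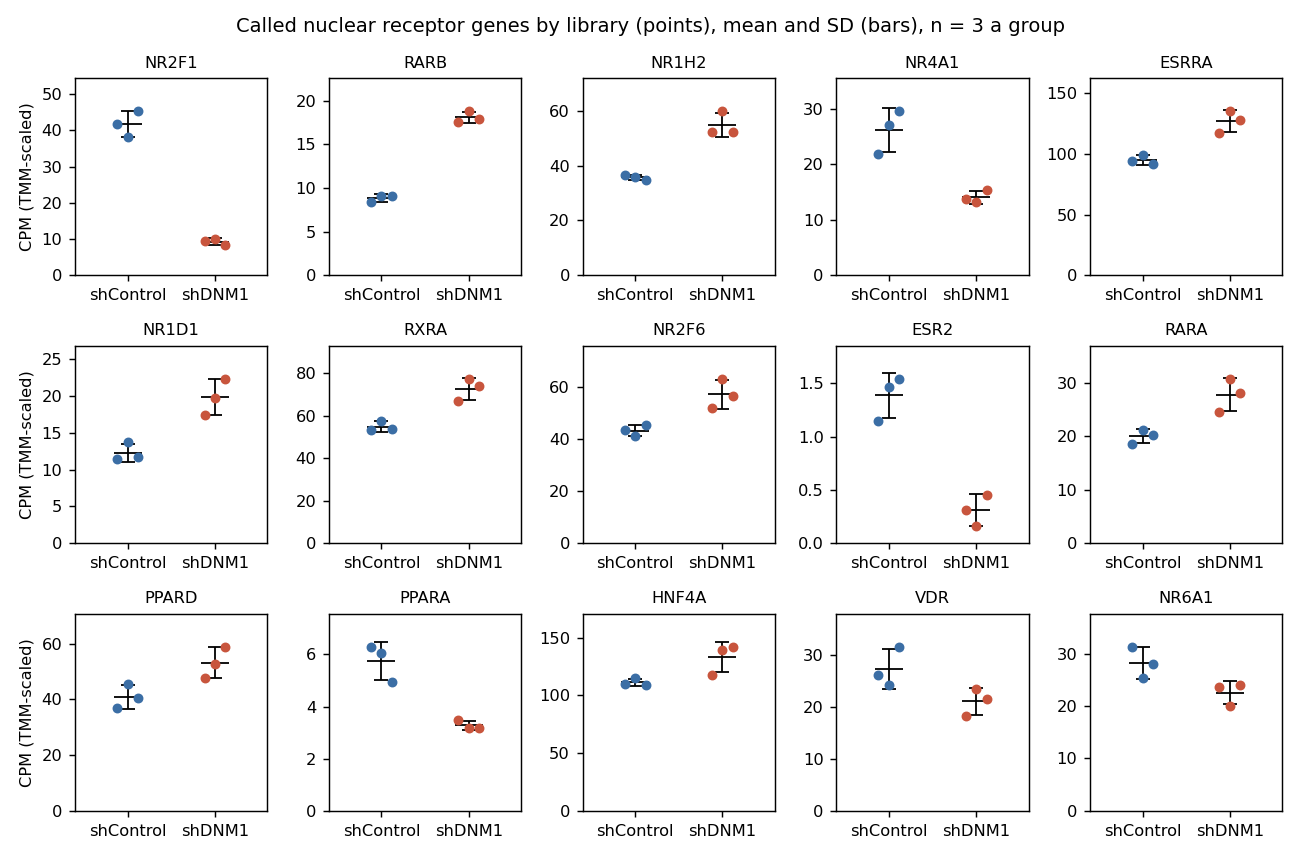
CPM of the 15 called members by library (points), with mean and SD (bars, n = 3) and axes from 0, shControl in blue and shDNM1 in red, ordered by adjusted p. In each panel the 3 points of one group lie above the 3 of the other, by a wide gap for NR2F1, RARB and NR1H2 and by a narrow one for VDR and NR6A1.

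The other orphans of subfamily 2 showed no call. NR2C1 (TR2), the fifth-ranked member by TPM in shControl, had 63.2, 50.9 and 63.5 CPM against 67.3, 51.3 and 57.2 CPM, which overlapped, with an interval of 85.6% to 115% of control (adjusted p = 0.938). NR2C2 (TR4) had 12.1 to 16.9 CPM and 13.4 to 15.9 CPM (adjusted p = 0.947). NR2E1, a neural stem cell factor, had 14, 9 and 10 counts against 10, 5 and 2, and did not pass (adjusted p = 0.202), and NR2E3, of photoreceptors, had 0 or 1 count.

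Within the NR4A group, ligand-independent receptors made as immediate early genes, NR4A1 (NUR77) fell. It had 21.9, 27.2 and 29.6 CPM in shControl and 13.7, 13.2 and 15.4 CPM in shDNM1. Although the shControl libraries were spread, none came near the shDNM1 values (53.7% of control, log2 fold change -0.90, SE 0.12, adjusted p = 2.11e-05). NR4A2 (NURR1) had 19.2, 16.5 and 16.3 CPM against 16.9, 12.1 and 15 CPM. These overlapped and did not pass (84.6%, adjusted p = 0.18), except without shDNM1 replicate 1 (adjusted p = 0.0466). NR4A3 had 2 to 4 counts in a library. The immediate early transcription factor genes that respond to the same stimuli did not fall as a group: of 12 tested, 3 rose and 2 fell, with a median log2 fold change of 0.02. JUNB was 1.64-fold higher (adjusted p = 7.34e-06) and IER2 1.35-fold (adjusted p = 0.00369), whereas JUN fell to 73.8% of control (adjusted p = 4.41e-05) and ATF3 to 70.9% (adjusted p = 0.00767). EGR1 was 1.18-fold higher (adjusted p = 0.0126), a call lost without shControl replicate 1 or shDNM1 replicate 3 (adjusted p = 0.0775 and 0.0718).

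NR6A1, the germ cell nuclear factor that silences pluripotency genes, fell modestly. It had 31.3, 25.3 and 28.1 CPM in shControl and 23.6, 20.1 and 24.0 CPM in shDNM1, with a narrow gap between the groups (80.1% of control, adjusted p = 0.0284). The call was lost without shControl replicate 1 (adjusted p = 0.183), shControl replicate 3 (adjusted p = 0.0713) or shDNM1 replicate 2 (adjusted p = 0.115), and with DESeq2 (adjusted p = 0.0543) or TPM (adjusted p = 0.101 and 0.0971). NR5A2, which controls bile acid and steroid genes in gut and liver, and NR0B1 (DAX1) had 0 counts in every library. NR5A1, of adrenal and gonad, had 0 to 2 counts, and NR0B2 (SHP), a receptor without a DNA-binding domain that FXR induces, had 3 to 7. In all, 16 members were not tested, 6 of them at 0 in all libraries, and none of the other 10 exceeded 19 counts in a library.

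Among the cofactors, the corepressor gene NRIP1 stood out. NRIP1 (RIP140), which liganded receptors recruit to limit their own activity, had 36.2, 32.0 and 33.4 CPM in shControl and 12.1, 10.1 and 11.6 CPM in shDNM1, far apart (33.4% of control, log2 fold change -1.58, SE 0.11, adjusted p = 5.51e-09). Of 13 tested corepressor genes 3 rose and 2 fell, and the median log2 fold change was -0.01. The histone demethylase KDM1A was 1.23-fold higher (adjusted p = 0.000781) and LCOR 1.16-fold (adjusted p = 0.0123). LCOR did not pass without shControl replicate 2 or 3 (adjusted p = 0.0815 and 0.0504), and TBL1X, which fell (adjusted p = 0.0361), failed once any shControl library or shDNM1 replicate 1 was dropped (adjusted p = 0.0598 to 0.131). Called corepressors numbered 3 without shControl replicate 2 or 3, and 1 fell without shControl replicate 1, 2 or 3.

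Of 20 coactivator genes 4 rose and 6 fell, with a median log2 fold change of -0.06. NCOA5 went to 64.4% of control (adjusted p = 1.5e-05), the arginine methyltransferase PRMT1 to 75.8% (adjusted p = 0.00019) and NCOA6 to 78.7% (adjusted p = 0.00108), while TRIP4 was 1.35-fold higher (adjusted p = 0.00123). Without shControl replicate 2 or 3 or shDNM1 replicate 3, 2 coactivators rose. On the TPM scales some calls named above were also lost, namely those of NPAS2, SLC16A10, LPCAT3, ABCB1, SERPINA1, TRPV6, CLMN, LCOR, AHSA1 and EGR1 and the rises of the PPAR list. With DESeq2 the calls of BMAL1, NFIL3, TBL1X, CLMN and CREB3L3 were lost (adjusted p = 0.054 to 0.0969). Library size scaling lost those of AHSA1, LPCAT3, SLC25A20 and CREB3L3 (edgeR adjusted p = 0.0501 to 0.0636). The call of BMAL1 was also lost with RLE scaling, and those of BMAL1 and LPCAT3 with no filter. Over all 15 lists of cofactors, chaperones and response genes, with each gene counted once, 145 were tested, 36 rose and 35 fell, with a median log2 fold change of 0.01. Called were 49%, 24.8% higher and 24.1% lower, against 31.9%, 15.6% and 16.2% of all genes tested. The lists were chosen with earlier results of these data known, and the difference in shares was not tested. These lists were drawn from general knowledge of other tissues and describe which genes moved, not the activity of a receptor, which was not measured.

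**Figure D4:**
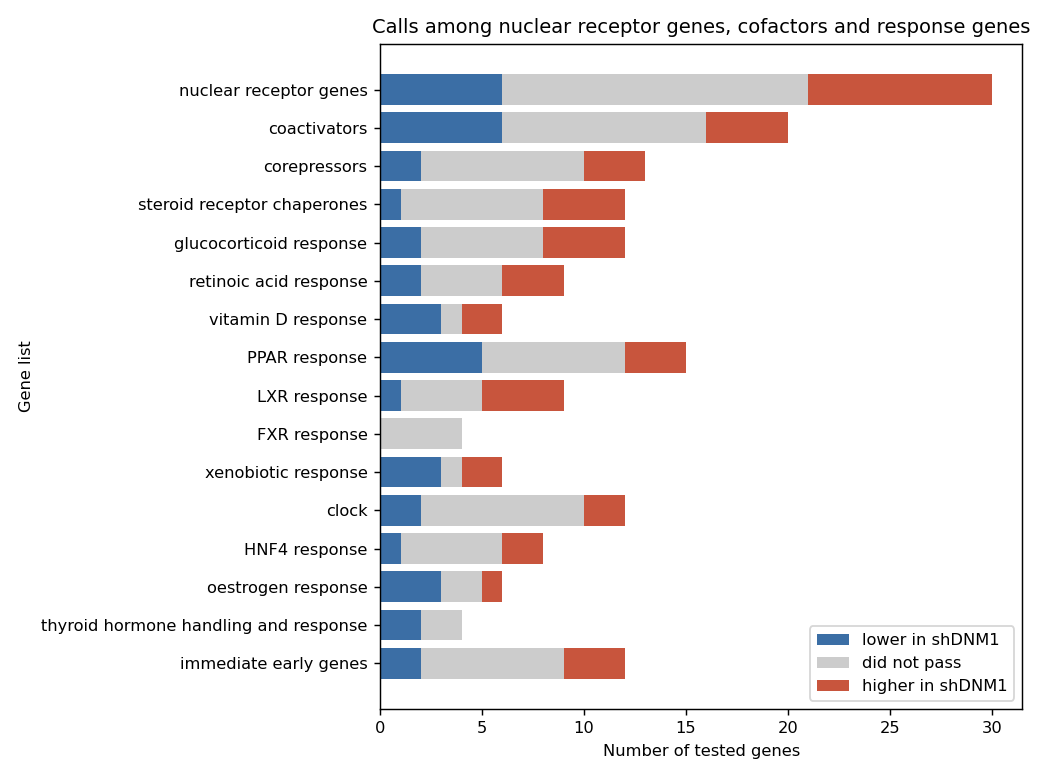
Number of tested genes that were lower (blue), did not pass (grey) or were higher (red) in shDNM1, for the nuclear receptor genes and each list of cofactors, chaperones and response genes. Most bars hold both colours, and the FXR list holds no call.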

How the data were processed

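Total RNA of SW620 cells was sequenced as mRNA-seq libraries, 3 per group. The authors deposited raw read counts per gene name and TPM. The deposited TPM, a length-adjusted score, repeats some gene names over several lines (2328 lines share 453 names), and each name was used once. The genome build is GRCh38, per the submitters' processing notes. Aligner, counter, annotation and strand setting were not named in the labels. Counts of 60835 names were tested with edgeR 4.0.16 (quasi-likelihood F test, two-sided, filterByExpr, TMM scaling, Benjamini-Hochberg over 16744 genes, threshold 0.05), with no covariate, since batch coincides with group. CPM, means, SDs and 95% intervals come from this fit or its scaled counts, and the precision is set by 3 libraries of 12844534 to 13537519 counts each. SEs were derived from the fold change and the F statistic. The fit was tested on simulated data. Alternatives used DESeq2 1.42.0 and limma 3.58.1, the latter on voom weights or on log2(TPM + 1) and log2(TPM + 0.1), with other scalings and filters and each library left out. Promoter sequences and motif searches used RefSeq windows (GRCh38.p14, 41 of 46 members matched; VDR, HNF4G, NR2F6, NR4A2 and NR0B2 are named only), and exon overlaps and shared stretches used GENCODE 29. Members, lists and motifs were chosen with earlier results of these data known. Library values are given for called members, those at 10 TPM or more in a group and the nearest member outside the threshold. From each list up to 4 genes with the smallest p are named, or every called gene where at most 3 passed. Further list genes were named after their values were seen, mostly because a call depended on 1 library, and a few list genes that the rule names are not reported here. Figures used Python 3.11.15 with matplotlib 3.10.9, and statistics R 4.3.3.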

Additional observations from a re-analysis of the deposited data

How the results depend on the processing

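Across 17 other settings, 12 of the 15 called members were called every time, the exceptions being VDR, HNF4A and NR6A1. Of 509 values for the 30 tested members, 458 kept direction and side of the threshold, 14 lost the call, 11 gained it and 26 changed sign. At an adjusted p of 0.01, 12 members (8 higher, 4 lower) and 3503 genes (1739 higher, 1764 lower) were called. With 1 library left out, members called ranged from 12 to 16 (8 to 10 higher, 4 to 6 lower) and genes called from 3990 to 5890. DNM1 ranged from -0.20 to -0.04, passing without shDNM1 replicate 1. List genes called higher numbered 22 rather than 36 on both TPM scales. The replicate numbers did not pair the libraries: deviations of same-numbered libraries correlated at 0.123, 0.0803 and -0.0401. A replicate block gave 16 members (10 higher, 6 lower, adding THRA) and 6080 genes. No scaling moved the median of all genes by more than 0.075 on the log2 scale.

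Every sign change was in a member that did not pass, and the cause was not tested. NR1D2 was at 0.00 with RLE scaling, the CPM filter and DESeq2, 0.03 without shControl replicate 1 and 0.02 without shDNM1 replicate 1. RORA was at 0.06 without shControl replicate 3 or shDNM1 replicate 3 and 0.09 without shDNM1 replicate 2, and over single libraries left out ran from -0.27 to 0.09. HNF4G was at 0.01 with RLE scaling, the CPM filter and DESeq2, 0.04 without shControl replicate 3 and 0.12 without shDNM1 replicate 2. NR2C1 was at 0.00 in the same 3 settings, 0.04 without shControl replicate 1 or 3, 0.07 without shDNM1 replicate 2 and 0.01 without shDNM1 replicate 3 (range -0.12 to 0.07). NR2C2 ran from -0.15 to 0.10, with 0.10 when shControl replicate 1 was dropped, 0.00 when shControl replicate 3 was and 0.04 when shDNM1 replicate 1 was. NR3C1 was at -0.01 and -0.03 on log2(TPM + 1) and log2(TPM + 0.1) and -0.10 without shDNM1 replicate 1, in a range up to 0.23. Levels as counts per kilobase were not run, since the count table has no gene lengths. Few counts limit ESR2, NR2E1, NR3C1, NR3C2 and the 16 members not tested.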
